A study of Mus musculus with 11 samples.

Results

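H3K4me2 nucleosomes were compared between villus epithelium of Cdx2 knockout (KO) mice and of wild-type (WT) mice. H3K4me2 is dimethylation of histone H3 at lysine 4, and each entry of the deposited lists is the position of a called nucleosome with a score. All nucleosomes with a score of 52 or more were taken, which gave 256794 in Cdx2 KO and 245431 in WT, together 502225 of the 1310379 nucleosomes at that score in the 5 H3K4me2 lists of the study. Nucleosomes of the 2 lists were matched by the distance between their centres and then described by score, spacing, clustering and position relative to CDX2 and HNF4A peaks.

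The study used chromatin immunoprecipitation and sequencing (ChIP-seq) on epithelium released from mouse jejunum with EDTA, with villi collected on a filter. Its H3K4me2 groups were Cdx2 KO, Hnf4a KO, 2 double knockouts and WT, each with 1 library made from pooled immunoprecipitations, and the strain label was a mixed 129xC57BL6 background in all of them. CDX2 peaks came from 2 WT libraries, and HNF4A peaks from 1 Cdx2 KO and 1 WT library. The labels name no Cre line, promoter, age, sex or number of animals. Both double-knockout libraries have labels that contradict each other on the gene deleted beside Cdx2, and they are named here by their titles, Cdx2-Cdx1 and Cdx2-Hnf4a. Micrococcal nuclease, an enzyme that cuts the DNA between nucleosomes, is described for unfixed villi without saying for which libraries.

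CDX2 is a homeodomain transcription factor that specifies and maintains the intestinal epithelium, and HNF4A is a nuclear receptor that acts with it on many genes of absorptive enterocytes. H3K4me2 marks nucleosomes at promoters and at enhancers, the distal elements through which such factors act. Where a factor occupies an enhancer, marked nucleosomes typically lie on either side of the bound DNA, while the nucleosome over the site itself is displaced.

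With 1 library on each side there is no replicate spread, so no test between the conditions was made and no p-value is given. Intervals are 95% intervals that cover counting error only. They treat nucleosomes as independent, which neighbours in a run are not, and reads copied by PCR are not independent molecules. The sequencing depth of the libraries is unknown, and both the score and the number of called nucleosomes move with depth. A nucleosome missing from a list was not called there, which is not the same as being absent. Each list also averages over many cells, so fewer cells carrying a marked nucleosome and fewer cells of one type cannot be told apart. The score is −10 times the log10 of the caller's p-value and was capped at 3250. Its median was 249.7 in Cdx2 KO and 241.6 in WT, and 4345 nucleosomes in Cdx2 KO and 3136 in WT were at the ceiling. The called nucleosomes covered 26.2 Mb in Cdx2 KO and 24.6 Mb in WT.

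Most H3K4me2 nucleosomes were found in both conditions at nearly the same place. A nucleosome was called shared where the nearest centre of the other list lay within 40 bp, and shifted where it lay 41 to 100 bp away. Beyond 100 bp it was called new if it was in Cdx2 KO, and lost if it was in WT. Of the Cdx2 KO nucleosomes, 180187 (70.2%) were shared, 13710 (5.34%) were shifted and 62897 (24.5%, 95% interval 24.3 to 24.7) were new. Of the WT nucleosomes, 180188 (73.4%) were shared, 13935 (5.68%) were shifted and 51308 (20.9%, 20.7 to 21.1) were lost. The median distance of WT nucleosomes matched within 100 bp was 10 bp, the step on which the lists place their starts, and 62.8% of them lay within 10 bp. The lists differed in length, and with both lists cut to 245431 nucleosomes by score, the new share was 22.4% and the lost share 22.3%.

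**Figure D1:**
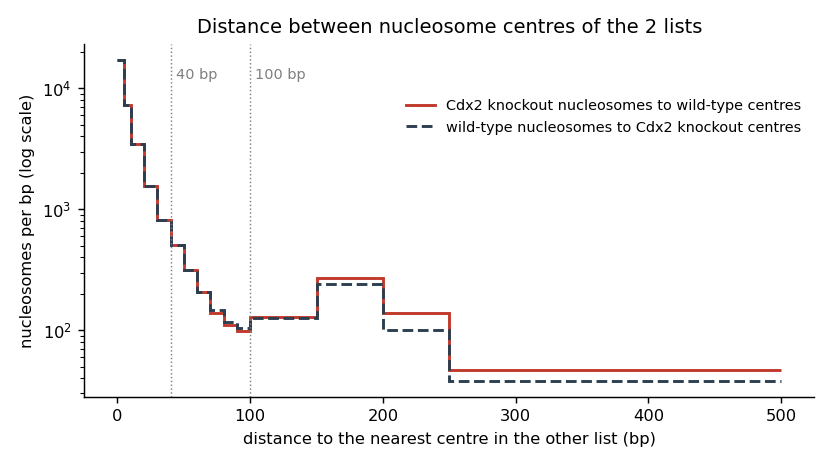
Distance from each nucleosome centre to the nearest centre in the other list, as nucleosomes per bp on a log scale, for the Cdx2 KO list (solid) and the WT list (dashed). Dotted lines mark 40 and 100 bp. Both curves fall by 100 bp and peak again between 150 and 200 bp.

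The distances formed 2 populations, as the plot of distances between centres shows. The density fell steadily to 97.7 Cdx2 KO and 104.8 WT nucleosomes per bp at 90 to 100 bp. It was higher again at 150 to 200 bp, with 271.8 per bp in Cdx2 KO and 243.3 in WT, which is about the distance to a neighbouring nucleosome. Of the new nucleosomes, 42.7% had a WT centre 101 to 250 bp away, 28.2% had one 251 to 1000 bp away and 29.1% (18328) had none within 1 kb. Of the lost nucleosomes, 45.8% had a Cdx2 KO centre 101 to 250 bp away, 26.6% had one 251 to 1000 bp away and 27.6% (14149) had none within 1 kb. The largest part of both sets thus lay next to a nucleosome of the other list, inside regions that both conditions marked.

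The turnover between Cdx2 KO and WT was not larger than between other lists of the study. Over the other 18 ordered pairs of the 5 lists, the unmatched share ran from 21.2% to 36.7% with a median of 26.3%. The lost share of 20.9% lay below that range and the new share of 24.5% lay inside it. The shifted share ran from 5.59% to 8.20% in the other pairs, and here it was 5.34% in Cdx2 KO, below that range, and 5.68% in WT, near its lower end. No condition has a second H3K4me2 library, so the share that would be unmatched between libraries of one condition is unknown.

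Unmatched nucleosomes were mainly weak ones. When each list was cut by score into 5 bins of about equal size, the new share of Cdx2 KO nucleosomes was 61.1% in the lowest bin (scores up to 94.6), then 36.7%, 16.6%, 6.33% and 1.49% in the highest bin (852.6 and above). The lost share of WT nucleosomes was 50.6% in the lowest bin (scores up to 89.6), then 30.1%, 15.2%, 6.77% and 1.54% in the highest (784.5 and above). At the score ceiling, 11 of 4345 Cdx2 KO nucleosomes were new and 5 of 3136 WT nucleosomes were lost. Strongly marked positions were thus nearly the same in both conditions, and any class of nucleosomes has to be read against its scores.

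The unmatched share also differed by position in a run, in a way that depended on the score. A run was a series of nucleosomes of one list with neighbouring centres at most 250 bp apart. In Cdx2 KO the new share was 34.0% of nucleosomes standing alone, 24.7% of pairs, 19.9% at the ends of runs of 3 or more and 14.9% inside them. In WT the lost share was 28.2%, 21.8%, 16.2% and 13.6% for the same places. Nucleosomes inside runs also scored higher, with a median of 524.2 in Cdx2 KO and 472.4 in WT, against 138.7 in Cdx2 KO and 139.9 in WT for those standing alone. Within the middle bin of the score the order differed, with the highest share inside runs. There 19.6% of Cdx2 KO nucleosomes inside runs and 15.05% of those alone were new, with 16.4% of pairs and 15.8% of run ends between them. In WT 1909 of 10603 nucleosomes inside runs, 14.4% of those alone, 15.3% of pairs and 13.4% of run ends were lost, so that run ends were lowest there.

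The turnover was spread over the genome. Over the autosomes the new share ran from 22.9% on chromosome 11 to 26.3% on chromosome 1, and the lost share from 19.4% on chromosome 7 to 22.7% on chromosome 3. On the X chromosome 21.7% of 4689 Cdx2 KO nucleosomes were new and 20.7% of 4631 WT nucleosomes were lost. The mitochondrial genome, which carries no histones, had 6 entries in Cdx2 KO and 25 in WT, so a few entries of these lists are not nucleosomes.

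Losses were more frequent around the places where CDX2 was bound in WT. CDX2 sites were regions where peaks of both WT CDX2 libraries overlapped, 1584 in all, of which 684 also held a WT HNF4A peak and 900 did not. WT CDX2 library 1 had 12121 peaks and library 2 had 7441, and peaks called in 1 library alone are not in these sites. Of 4358 WT nucleosomes within 1 kb of such a site, 1475 (33.8%, 32.4 to 35.3) were lost in Cdx2 KO, against 19.6% (19.4 to 19.8) of the 164529 WT nucleosomes with no factor peak within 1 kb. The difference was 14.3 percentage points (12.9 to 15.7). Gains went the other way: 530 of 3401 Cdx2 KO nucleosomes (15.6%, 14.4 to 16.8) near CDX2 sites were new, against 27.6% (27.4 to 27.9) of Cdx2 KO nucleosomes with no factor peak. That difference was −12.1 points (−13.3 to −10.8). The surroundings of CDX2 sites thus combined more losses with fewer gains than the marked genome with no factor peak.

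The lost share differed by class of factor peak. The lost share was 37.0% (34.8 to 39.4) at CDX2 sites without HNF4A and 31.8% (30.0 to 33.6) at CDX2 sites with HNF4A. HNF4A peaks of WT that overlapped no CDX2 peak of either library were split by whether HNF4A was called there in Cdx2 KO. The lost share was 24.7% (24.2 to 25.2) where the HNF4A peak was lost and 17.6% (17.0 to 18.1) where it was kept. It was 14.2% (13.4 to 15.1) at HNF4A peaks called in Cdx2 KO and not in WT. At other factor peaks, most of them CDX2 peaks found in 1 library, it was 28.0% (27.5 to 28.6). The 2 classes of CDX2 site differed in WT score, with medians of 192.5 without HNF4A and 233.6 with it. With the 5 score bins weighted equally their lost shares were 32.9% without and 31.8% with HNF4A, a smaller gap. The median WT score was 243.8 at lost and 285.9 at kept HNF4A peaks. Weighted equally, their lost shares were 24.9% and 19.9%, against 19.1% with no factor peak. The new share had another order. It was 14.8% and 16.1% at CDX2 sites without and with HNF4A, 16.7% at lost and 15.3% at kept HNF4A peaks, and 23.0% (22.1 to 24.0) at HNF4A peaks found in Cdx2 KO alone. Around those the balance was towards new nucleosomes, as in the parts of the genome with no factor peak. At other factor peaks the new share was 16.0%. A new share below that with no factor peak was thus not particular to CDX2 sites.

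**Figure D2:**
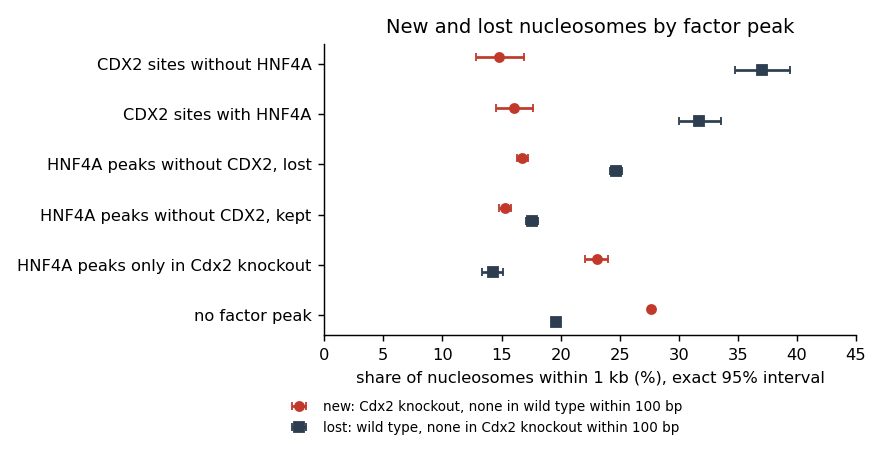
Share of nucleosomes without a partner within 100 bp in the other list, by the factor peak within 1 kb, with exact 95% intervals (counting error only). Circles are new nucleosomes in Cdx2 KO and squares are lost nucleosomes in WT. Squares run from 37.0% at CDX2 sites without HNF4A to 14.2% at HNF4A peaks found in Cdx2 KO alone.

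Over all CDX2 sites, the lost share was above that with no factor peak in each bin of the score. By bin of the WT score, from lowest to highest, the lost share near CDX2 sites was 71.0%, 48.2%, 27.7%, 11.4% and 3.20%. With no factor peak it was 47.2%, 27.2%, 13.5%, 6.28% and 1.497%. In the highest bin the counts were small, and at CDX2 sites without HNF4A the share there was 1.40% (3 of 215). Weighting the bins equally gave 32.3% near CDX2 sites and 19.1% with no factor peak. In Cdx2 KO the new share near CDX2 sites was 34.4% in the lowest bin and 1.33% in the highest, against 66.7% and 1.49% with no factor peak. Weighted equally over the bins the new share was 14.5% near CDX2 sites and 27.0% with no factor peak.

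The higher lost share was also seen farther from CDX2 sites than the flanking nucleosomes. By distance from the centre of a CDX2 site, the lost share was 28.0% (23.9 to 32.4) within 75 bp, and it stayed between 33.7% and 35.2% in each interval from there to 1 kb. It was 32.9% at 1 to 2 kb, 28.1% at 2 to 5 kb, 24.9% at 5 to 20 kb and 21.4% (21.0 to 21.9) at 20 to 100 kb. The new share was lowest at 150 to 300 bp, at 12.5% (10.3 to 15.1), and was 18.2% at 500 bp to 1 kb and 24.4% at 20 to 100 kb. The higher lost share in these lists was therefore not limited to the pair of flanking nucleosomes. Distances were to the nearest CDX2 site, and nucleosomes beside other factor peaks were not left out. The intervals were also not matched by score: the median WT score was 281.9 within 75 bp and 192.5 at 500 bp to 1 kb. How far the change around a single CDX2 site reaches was not tested.

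The same WT nucleosomes were also followed in the other 3 H3K4me2 lists, all of which share the WT list, so the values stand side by side and are not independent. Near CDX2 sites the lost share was 33.8% in Cdx2 KO, 32.1% in the library titled Cdx2-Cdx1, 45.3% in the library titled Cdx2-Hnf4a and 17.8% in Hnf4a KO. With no factor peak it was 19.6%, 23.2%, 23.7% and 22.9% in the same order. In the 3 libraries whose labels have Cdx2 deleted, the share near CDX2 sites lay above the share with no factor peak. In Hnf4a KO it lay below.

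Counted per site rather than matched, nucleosomes were fewer in Cdx2 KO beside CDX2 sites, and less so at their centres. Within 75 bp of the site centre there were 25.6 nucleosomes per 100 CDX2 sites in Cdx2 KO and 28.2 in WT. At 150 to 250 bp, where the flanking nucleosomes lie, there were 32.3 in Cdx2 KO and 45.4 in WT. Ratios were scaled by the lengths of the lists, since the Cdx2 KO list was 1.05 times as long as the WT list. The scaled ratio of Cdx2 KO to WT was 0.870 (0.759 to 0.998) within 75 bp, 0.782 (0.686 to 0.891) at 75 to 150 bp and 0.681 (0.606 to 0.763) at 150 to 250 bp. It was 0.716 (0.658 to 0.779) at 250 to 500 bp and 0.754 (0.696 to 0.817) at 500 bp to 1 kb. The smallest of these 5 ratios was thus that of the flanking zone, although its interval overlaps those of the neighbouring zones.

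CDX2 sites without HNF4A had the lower ratios close to the centre. At 75 to 150 bp the ratio was 0.653 (0.533 to 0.797) without HNF4A and 0.899 (0.755 to 1.07) with it, and at 150 to 250 bp it was 0.613 (0.510 to 0.736) without and 0.730 (0.629 to 0.847) with it. These intervals overlap, and a difference between the 2 kinds of CDX2 site was not tested. At 500 bp to 1 kb the order was turned, with 0.795 without HNF4A and 0.730 with it.

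HNF4A peaks without CDX2 showed a related but different shape. Where HNF4A was kept in Cdx2 KO, the ratio was 1.14 (1.06 to 1.22) within 75 bp and 0.868 (0.830 to 0.909) at 150 to 250 bp, so the count was higher over the peak centre and lower on its flanks. Where HNF4A was lost, it was 0.997 (0.947 to 1.05) within 75 bp and 0.764 (0.733 to 0.796) at 150 to 250 bp. At HNF4A peaks found in Cdx2 KO alone it was 1.12 (1.01 to 1.24) within 75 bp and 1.01 (0.927 to 1.09) at 150 to 250 bp. The interval of the flanking ratio at these peaks held 1, whereas those of the other classes lay below it.

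**Figure D3:**
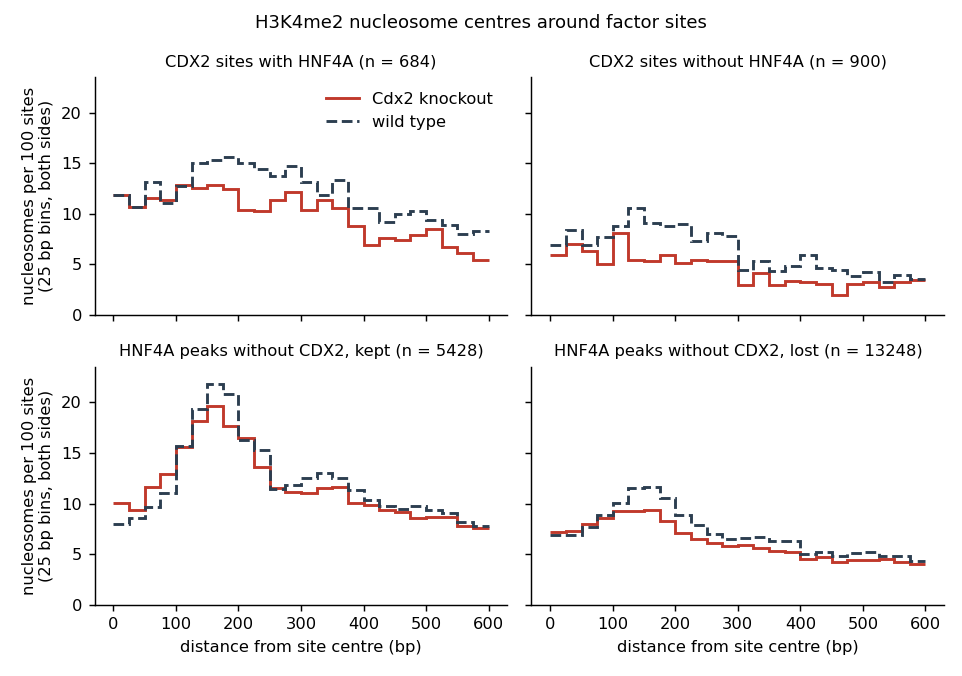
Nucleosome centres per 100 sites in 25 bp bins by distance from the site centre, both sides added, in Cdx2 KO (solid) and WT (dashed), for 4 classes of site. At 150 to 175 bp from kept HNF4A peaks there are 19.6 in Cdx2 KO and 21.8 in WT, and around CDX2 sites without HNF4A 5.33 in Cdx2 KO and 9.11 in WT.

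The plot of nucleosomes by distance shows how the classes differ in shape. Kept HNF4A peaks had a sharp maximum at 150 to 175 bp, with 19.6 nucleosomes per 100 sites in Cdx2 KO and 21.8 in WT. CDX2 sites with HNF4A had a broad and low maximum, with 12.4 per 100 sites in Cdx2 KO and 15.6 in WT at 175 to 200 bp. CDX2 sites without HNF4A carried the fewest marked nucleosomes of the 4 classes at these distances, 5.33 per 100 sites in Cdx2 KO and 9.11 in WT at 150 to 175 bp. Single bins of these sites hold few nucleosomes: at 100 to 125 bp there were 8.11 per 100 sites in Cdx2 KO and 8.78 in WT, and at 125 to 150 bp 5.44 in Cdx2 KO and 10.6 in WT.

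A site with marked nucleosomes on both sides and none over its centre has the layout typical of an occupied enhancer. Flanks were scored within 250 bp and the centre within 75 bp. At CDX2 sites this layout was found in 188 of 1584 sites in Cdx2 KO (11.9%, 10.3 to 13.6) and in 274 in WT (17.3%, 15.5 to 19.3). Of the 274 sites, 125 (45.6%) still had it in Cdx2 KO, 100 (36.5%) had lost a flanking nucleosome and 49 (17.9%) had gained a central one. At kept HNF4A peaks it was found in 31.3% in Cdx2 KO and 35.5% in WT, and 69.3% of the WT ones still had it in Cdx2 KO. At lost HNF4A peaks it was found in 12.9% in Cdx2 KO and 17.3% in WT, and 54.7% still had it. Loss of a flank was the more frequent way out of the layout at CDX2 sites, in 100 sites against the 49 where the centre was filled. The order was the same at lost HNF4A peaks, with 673 against 366, and at kept ones, with 337 against 255.

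At CDX2 sites the centre changed less than the flanks, and its direction depended on how the sites were defined. A nucleosome lay within 75 bp of the centre at 404 CDX2 sites in Cdx2 KO (25.5%, 23.4 to 27.7) and at 445 in WT (28.1%, 25.9 to 30.4), and these intervals overlap. With sites taken as all peaks of WT CDX2 library 2, without library 1, the shares were 8.61% in Cdx2 KO and 7.66% in WT, so the direction turned. With library 1 alone they were 20.1% in Cdx2 KO and 21.9% in WT. At kept HNF4A peaks the share was 31.3% (30.1 to 32.6) in Cdx2 KO and 26.4% (25.2 to 27.6) in WT, and at HNF4A peaks found in Cdx2 KO alone 29.1% in Cdx2 KO and 24.8% in WT. At lost HNF4A peaks it was 22.5% in Cdx2 KO and 21.6% in WT.

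Nucleosomes that stayed beside CDX2 sites lay closer to the site in Cdx2 KO. This was measured on WT nucleosomes 76 to 250 bp from the centre with a Cdx2 KO centre within 100 bp, as their distance in Cdx2 KO minus that in WT. At 796 nucleosomes beside CDX2 sites the mean displacement was −8.87 bp (SD 28.3), where a negative value is towards the site. Of these, 446 (56.0%, 52.5 to 59.5) lay closer and 242 (30.4%, 27.2 to 33.7) farther away in Cdx2 KO. Moves of more than 40 bp were towards the site in 91 nucleosomes and away from it in 21. Choosing the nucleosomes by their distance in Cdx2 KO instead gave −7.83 bp (SD 28.7, n = 803). Over all 194123 matched nucleosomes the mean shift, counted rightward along the chromosome, was −0.0012 bp (SD 22.3), so the lists had no general offset in that direction. Such a mean is no baseline for moves towards or away from a site. At other factor peaks the mean displacement was −4.98 bp (SD 24.5, n = 5554), with 381 moves of more than 40 bp towards the peak and 161 away.

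**Figure D4:**
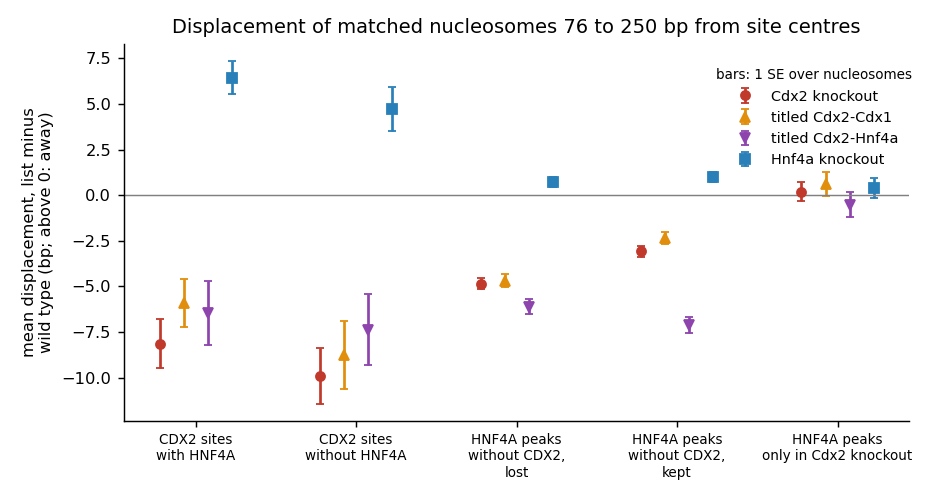
Mean displacement of WT nucleosomes 76 to 250 bp from site centres, in each H3K4me2 list minus WT, in bp (below 0 is towards the site). Bars are 1 standard error over nucleosomes of 1 library, not over libraries. In Cdx2 KO the means run from −9.89 bp at CDX2 sites without HNF4A to 0.19 bp at HNF4A peaks found in Cdx2 KO alone.

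By class of site the displacement was −9.89 bp (SD 27.8, n = 331) at CDX2 sites without HNF4A and −8.14 bp (SD 28.6, n = 465) at those with HNF4A. It was −4.85 bp (SD 24.8, n = 6894) at lost HNF4A peaks, −3.08 bp (SD 21.7, n = 5697) at kept ones and 0.19 bp (SD 21.8, n = 1767) at HNF4A peaks found in Cdx2 KO alone. With nucleosomes chosen by their distance in Cdx2 KO, the means at CDX2 sites were −7.01 bp (n = 323) without HNF4A and −8.39 bp (n = 480) with it, so the order of these 2 classes was not stable. The means are small beside the spread of single nucleosomes, and near the 10 bp step of the lists. Against the same WT nucleosomes, the mean at CDX2 sites was −7.11 bp (n = 833) in the library titled Cdx2-Cdx1 and −6.86 bp (n = 650) in the library titled Cdx2-Hnf4a. In Hnf4a KO it was 5.69 bp (SD 23.7, n = 1042), away from the site. Without WT CDX2 library 2, that is with library 1 peaks alone as sites, the mean in Cdx2 KO was −5.34 bp over 5033 nucleosomes.

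Gaps between neighbouring nucleosomes were found in each list and then followed in the other list. A gap was a pair of neighbours 260 to 400 bp apart, wide enough for 1 nucleosome to be missing between them. In Cdx2 KO 285 such gaps lay over CDX2 sites, and 180 of them (63.2%) had both flanks shared with WT. In WT there were 419, of which 189 (45.1%) had both flanks shared with Cdx2 KO. Gaps with both flanks unmatched numbered 3 in Cdx2 KO and 85 in WT. Of the gaps with both flanks shared, 3 of 180 in Cdx2 KO (1.67%, 0.345 to 4.79) held a WT nucleosome at least 100 bp from either flank, and 12 of 189 in WT (6.35%, 3.32 to 10.8) held a Cdx2 KO nucleosome. With no factor peak the lists were closer to each other, with 57.6% of gaps in Cdx2 KO and 62.4% in WT having shared flanks, and 12.3% in Cdx2 KO and 11.4% in WT of those filled in the other list. Of the 419 WT gaps at CDX2 sites, 230 thus did not have both flanks shared with Cdx2 KO. Filling was counted in the 189 that did.

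Nucleosomes shared by both conditions also differed in score near CDX2 sites. Over all 180188 shared nucleosomes the median score was 398.8 in Cdx2 KO and 354 in WT, and the median log2 ratio of Cdx2 KO to WT was 0.15. A score at least 2-fold lower in Cdx2 KO was found in 7.16% of them and a score at least 2-fold higher in 14.3%. At CDX2 sites with HNF4A the median log2 ratio was −0.23, with 19.6% (17.7 to 21.7) at least 2-fold lower and 7.33% at least 2-fold higher. At CDX2 sites without HNF4A it was −0.15, with 17.6% (15.3 to 20.2) lower and 9.19% higher. The genome-wide tilt towards higher scores in Cdx2 KO was therefore absent at CDX2 sites, where the tilt was to lower ones.

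At HNF4A peaks without CDX2 the median log2 ratio was 0.00 where HNF4A was lost and 0.01 where it was kept, both under the median of all shared nucleosomes. At HNF4A peaks found in Cdx2 KO alone it was 0.19, with 5.14% at least 2-fold lower and 15.3% at least 2-fold higher, and with no factor peak it was 0.23, with 5.27% lower and 16.6% higher. By distance from CDX2 sites the median log2 ratio was −0.31 within 75 bp, −0.27 at 75 to 300 bp, −0.15 at 300 bp to 1 kb, 0.01 at 1 to 5 kb, 0.09 at 5 to 20 kb and 0.14 at 20 to 100 kb. It thus approached the value of all shared nucleosomes with distance. Within 75 bp of a site, the median score was 342 in Cdx2 KO and 426.1 in WT over 278 shared nucleosomes.

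Whole groups of nucleosomes were found in one condition alone. Clusters were runs of 3 or more nucleosomes, and there were 28213 in Cdx2 KO, holding 44.2% of its nucleosomes, and 26863 in WT, holding 43.5%. The largest cluster had 21 nucleosomes in Cdx2 KO and 18 in WT. No WT centre lay within 100 bp of the span of 681 Cdx2 KO clusters (2.41%), and no Cdx2 KO centre within 100 bp of the span of 538 WT clusters (2%). That balance depended on the lists, being 532 in Cdx2 KO and 613 in WT with lists of equal length, and 33 in Cdx2 KO and 44 in WT among clusters of 5 or more. These clusters were weak: the median of their mean scores was 117.0 in Cdx2 KO and 128.2 in WT, against 570.5 in Cdx2 KO and 529.2 in WT over all clusters.

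The factor peaks near the clusters differed between the directions. Of the 681 clusters found in Cdx2 KO alone, 19 (2.79%, 1.69 to 4.32) had a CDX2 peak of either library within 1 kb, against 12.5% of all Cdx2 KO clusters. Of the 538 found in WT alone, 181 (33.6%, 29.7 to 37.8) had one, against 14.5% of all WT clusters. A WT HNF4A peak lay near 9.10% of the clusters found in Cdx2 KO alone and 34.0% of those found in WT alone, against 26.4% of all Cdx2 KO clusters and 29.4% of all WT clusters. No factor peak at all lay near 85.2% of the clusters found in Cdx2 KO alone, against 65.0% of all Cdx2 KO clusters. In WT it was 46.7% of the clusters found there alone, against 61.4% of all WT clusters. New clusters thus lay away from the mapped factors more often than Cdx2 KO clusters in general. Lost ones lay near CDX2 more often than WT clusters in general.

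The WT clusters missing from each of the other lists give a scale for this, again with the WT list in common. There were 538 without a nucleosome in Cdx2 KO, 634 in the library titled Cdx2-Cdx1, 1450 in the library titled Cdx2-Hnf4a and 237 in Hnf4a KO. The share of these with a CDX2 peak within 1 kb was 33.6% for Cdx2 KO, 24.0% (20.7 to 27.5) for Cdx2-Cdx1, 29.1% (26.8 to 31.5) for Cdx2-Hnf4a and 6.75% (3.91 to 10.7) for Hnf4a KO. The interval for Hnf4a KO lay below the 14.5% of all WT clusters, and the 3 others lay above it.

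Large clusters with no nucleosome in the other list were rare. Of Cdx2 KO clusters of 10 or more, 1 of 247 (0.405%, 0.0102 to 2.23) had no WT nucleosome, and 187 (75.7%) had some but fewer in WT. Of WT clusters of that size, 3 of 199 (1.51%, 0.312 to 4.34) had no Cdx2 KO nucleosome and 138 (69.3%) had some but fewer in Cdx2 KO. For clusters of 3 or 4 nucleosomes the shares without the other list were 3.09% in Cdx2 KO and 2.43% in WT. At this size, 54.7% in Cdx2 KO and 58.8% in WT had as many nucleosomes in the other list as in their own.

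The WT cluster with the most nucleosomes and none in Cdx2 KO lay on chromosome 11 at 118850641 to 118853041 (build mm9, positions as deposited). It held 13 nucleosomes in WT and 12 in Hnf4a KO, and 0 in Cdx2 KO and in both double-knockout libraries. A WT HNF4A peak that was not called in Cdx2 KO lay within 1 kb of it. A cluster on chromosome 4 at 106406871 to 106408731 held 0 nucleosomes in Cdx2 KO, 10 in WT, 8 in Hnf4a KO and 0 in both double-knockout libraries, with no factor peak within 1 kb. A cluster on chromosome 3 at 96634121 to 96635471 held 0 in Cdx2 KO, 8 in WT, 8 in Hnf4a KO, 3 in Cdx2-Cdx1 and 0 in Cdx2-Hnf4a. Of the 8 WT clusters ranked first by number, 7 had nucleosomes in Hnf4a KO, and 1 had nucleosomes in neither single knockout. Most WT clusters had them in Hnf4a KO: of all 26863, only 237 (0.882%) had none there. The 1 exception, on chromosome 18 at 61179451 to 61180661, held 7 nucleosomes in WT, 7 in Cdx2-Hnf4a and 0 in Cdx2-Cdx1.

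The Cdx2 KO cluster with the most nucleosomes and none in WT lay on chromosome 6 at 87336881 to 87338641. It held 10 nucleosomes in Cdx2 KO, 6 in Cdx2-Cdx1, 7 in Cdx2-Hnf4a and 0 in Hnf4a KO and in WT. The next, on chromosome 7 at 146578521 to 146579791, held 7 in Cdx2 KO, 3 in Cdx2-Cdx1, 6 in Cdx2-Hnf4a, 2 in Hnf4a KO and 0 in WT. A cluster on chromosome 7 at 4981291 to 4982391 held 6 nucleosomes in Cdx2 KO and 0 in each of the other 4 lists. None of the 8 Cdx2 KO clusters ranked first by number had a CDX2 or HNF4A peak within 1 kb. Without such a peak were also 85.2% of all clusters found in Cdx2 KO alone and 65.0% of all Cdx2 KO clusters.

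Longer domains appeared when the gap limit was dropped and unmatched nucleosomes were followed until the next matched one. In Cdx2 KO there were 44693 such runs, of which 75.1% were of 1 nucleosome and 58 of 10 or more. In WT there were 37294, of which 77.2% were of 1 nucleosome and 52 of 10 or more. The longest in WT, 31 nucleosomes on chromosome 11 from 118844531 to 118855061, surrounds the cluster named above. It had 0 nucleosomes in Cdx2 KO, 28 in Hnf4a KO, 1 in Cdx2-Cdx1 and 0 in Cdx2-Hnf4a, with CDX2 and HNF4A peaks of WT within 1 kb. A WT run of 29 on chromosome 1 from 130218411 to 130226211 had 0 in Cdx2 KO, 22 in Hnf4a KO and 0 in both double-knockout libraries, and peaks of both CDX2 libraries.

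The longest Cdx2 KO run held 27 nucleosomes on chromosome 9 from 69867821 to 69881221. In that span there were 30 nucleosomes in Cdx2-Cdx1, 35 in Cdx2-Hnf4a, 15 in Hnf4a KO and 1 in WT. A run of 24 on chromosome 9 from 78040051 to 78052081 had 28 in Cdx2-Cdx1, 31 in Cdx2-Hnf4a, 1 in Hnf4a KO and 0 in WT. A run of 20 on chromosome 5 from 148082491 to 148089281 had 8 in Cdx2-Cdx1, 20 in Cdx2-Hnf4a, and 0 in Hnf4a KO and in WT. The 5 longest runs in each direction were chosen after their values were seen.

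The spacing of neighbouring nucleosomes was nearly the same in both conditions. The most frequent distance between neighbouring centres was 180 to 190 bp in both lists, with 7.78% of pairs in Cdx2 KO and 7.99% in WT. Pairs 140 to 240 bp apart numbered 108183 in Cdx2 KO (42.1%) and 102456 in WT (41.7%). Within that range the mean was 193.1 bp (SD 22.0) in Cdx2 KO and 190.5 bp (SD 22.1) in WT. The mean was 190.4 bp in Cdx2-Cdx1, 192.6 bp in Cdx2-Hnf4a and 189.1 bp in Hnf4a KO.

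**Figure D5:**
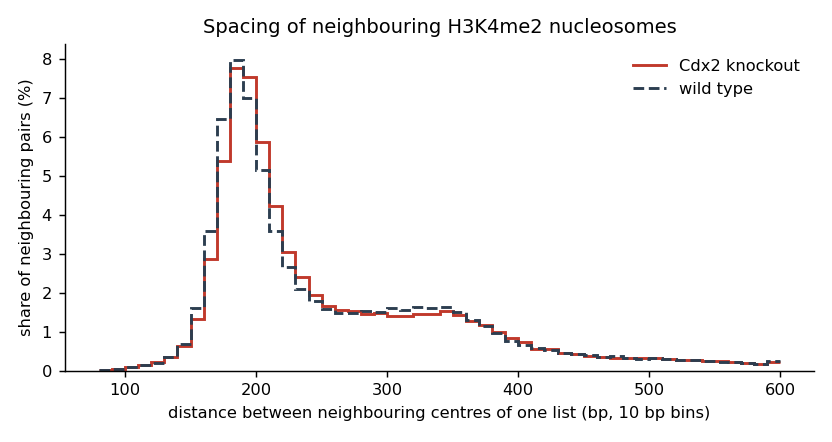
Share of neighbouring pairs of nucleosomes by the distance between their centres, in 10 bp bins, in Cdx2 KO (solid) and WT (dashed). Both peak at 180 to 190 bp, and the Cdx2 KO curve lies above the WT curve from 190 to 280 bp.

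A small difference in spacing was also present in the same pairs of nucleosomes. Over 69018 neighbouring pairs found in both lists the mean was 193.6 bp in Cdx2 KO and 191.8 bp in WT, a mean difference of 1.80 bp (SD 16.0). The median difference was 0 bp, with 47.1% of pairs wider and 37.5% narrower in Cdx2 KO. Against the same WT list, the mean difference was 1.36 bp in Cdx2-Cdx1, 1.74 bp in Cdx2-Hnf4a and 0.71 bp in Hnf4a KO. For Hnf4a KO the means over all pairs 140 to 240 bp apart had the opposite order, 189.1 bp against 190.5 bp in WT. These differences are below the 10 bp step of the positions. As the plot of spacing shows, the WT list held more pairs at 300 to 350 bp, with 1.64% of pairs in its bin at 320 to 330 bp against 1.46% in Cdx2 KO.

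Among single positions, the lost nucleosomes at the score ceiling still had a neighbour close by in Cdx2 KO. The 5 WT nucleosomes at the ceiling with no Cdx2 KO centre within 100 bp had the nearest one at distances from 135 to 405 bp. One, on chromosome 1 at 90173251 to 90173331 beside a lost HNF4A peak, had a score of 3062 in Hnf4a KO, 3250 in Cdx2-Cdx1 and 3138 in Cdx2-Hnf4a. Another, on chromosome 7 at 30645241 to 30645321, scored 3250 in Hnf4a KO and in Cdx2-Cdx1 and had no shared nucleosome in Cdx2-Hnf4a. Both positions were thus missing from the Cdx2 KO list but called in at least 1 other list with Cdx2 deleted. Of the 11 new nucleosomes tied at the ceiling in Cdx2 KO, the 5 that come first by chromosome and position had a WT centre at distances from 105 to 360 bp.

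Among shared nucleosomes scoring 200 or more in either list, the largest fall was on chromosome 5 at 136066251 to 136066331, with a score of 56.7 in Cdx2 KO and 1486 in WT. There Hnf4a KO had 1502, and the nearest centre was 25775 bp away in Cdx2-Cdx1 and 25740 bp away in Cdx2-Hnf4a. The second-largest fall, on chromosome 11 at 104172051 to 104172211, had 99.7 in Cdx2 KO and 2582 in WT. Its scores in the other lists were also below that of WT, with 52 in Hnf4a KO, 682 in Cdx2-Cdx1 and 826 in Cdx2-Hnf4a. A fall on chromosome 13 at 19456391 to 19456471, to 84.9 in Cdx2 KO against 1861 in WT, was accompanied by 1164 in Hnf4a KO and 73.5 in Cdx2-Cdx1. The log2 ratios of the 5 largest falls ran from −4.71 to −4.28 and those of the 5 largest rises from 4.40 to 5.29. A rise on chromosome 13 at 54762691 to 54762771 had 3250 in Cdx2 KO and 116.8 in WT, with 3035 in Cdx2-Cdx1, 3250 in Cdx2-Hnf4a and 674 in Hnf4a KO. The rise with the largest ratio, on chromosome 10 at 126247101 to 126247191, had 3100 in Cdx2 KO and 79.1 in WT. It scored 722 in Cdx2-Cdx1 and 3250 in Hnf4a KO and was not called in Cdx2-Hnf4a.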

How the data were processed

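The deposited H3K4me2 lists give a start, an end and a score for each called nucleosome. Per the file headers, the authors' score is 10 times the −log10 of a p-value. Factor peaks came as lists with a score, whose meaning is not given in the sources used here, and they were used for position alone. Build mm9 is named in the submitters' processing notes. The aligner, the caller and reads per library are not given there, so depth is unknown. The lowest deposited score was 51.3 in Cdx2 KO, 50.1 in WT and 1.7 in Hnf4a KO, and a minimum of 52 was applied to all 5 lists.

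Centres were matched to the nearest centre of the other list. CDX2 sites were merged regions of overlapping peaks of both WT libraries. A nucleosome within 1 kb of a CDX2 site was put in that class first, and otherwise in the class of the nearest peak. Groups came from titles. Calculations used Python 3.11.15, numpy 2.4.6, pandas 2.3.3 and scipy 1.17.1. Matching was tested on part of the WT list with nucleosomes dropped and moved, and clustering and ratios on small made-up inputs. Shares have Clopper-Pearson intervals, their differences Newcombe intervals and scaled ratios exact binomial ones.

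Regions named were the 8 largest clusters and the 5 highest-scoring unmatched nucleosomes in each direction, and the 5 largest falls and rises of score, of which some are given in full. The classes, limits and rules were chosen with earlier results of these data known. Alternatives were another minimum score, lists of equal length, other distance limits, and each WT CDX2 library left out. Those for the displacement and the scaled ratio were chosen after seeing the data. An mm9 genome or annotation was not used here, so no gene is named, marker genes of the epithelium and the Cdx2 locus were not checked, and no sequence is printed. The input library was not analysed here.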

Additional observations from a re-analysis of the deposited data

How the results depend on the processing

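Of the values recomputed under an alternative, 32 stayed close to the value reported and 15 moved. Counts were judged by their fold change, and shares, means and ratios by whether they lay inside the interval of the value reported. The 32 include the lost and new counts with sharing within 20 bp, which could not change because that limit does not enter them. The order of Cdx2 KO and WT turned for clusters without the other list, with lists of equal length (532 in Cdx2 KO, 613 in WT) and among clusters of 5 or more, and for the central share without WT CDX2 library 1. With a minimum score of 100 there were 34044 lost and 8517 shifted WT nucleosomes, 450 Cdx2 KO clusters and 335 WT clusters without the other list, and a central nucleosome at 20.5% of CDX2 sites in Cdx2 KO (22.7% in WT). Fewer nucleosomes enter at that score. Sharing within 20 bp made 37576 WT nucleosomes shifted by construction. Among clusters of 5 or more, 33 in Cdx2 KO and 44 in WT lacked the other list. With lists of equal length the lost share near CDX2 sites was 35.7%, against 20.9% with no factor peak. With a centre defined within 50 bp, 17.2% of CDX2 sites had a central nucleosome in Cdx2 KO and 18.7% in WT. Leaving out a WT CDX2 library gave lost shares from 29.0% to 31.3% and central shares in Cdx2 KO from 8.61% to 20.1%, where the sites are all peaks of the other library, and without library 1 the central share in WT was lower, 7.66%. The lost share near CDX2 sites stayed above the share with no factor peak in each of these alternatives, and the scaled ratio at 150 to 250 bp ran from 0.657 to 0.755. No paired analysis was possible because each H3K4me2 group has 1 library and no result comes from a test. Unknown depth limits every count, and 1 library a side leaves the spread between animals unknown.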
